A study of Mus musculus with 16 samples.

Results

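The redox and aldehyde detoxification genes described here are 10 genes that clear reactive aldehydes, quinones and peroxides, or that supply the cell with glutathione: Akr1b8, Akr1b3, Ptgr1, Nqo1, Hmox1, Gclc, Gclm, Txnrd1, Srxn1 and Prdx1. They were found by gene symbol among the 49585 gene identifiers of the deposited tables, and all 10 were present once. The set was selected on measured values, the higher levels of Akr1b8 and Ptgr1 in Suv39h2 knockdown, so the values of these genes in the comparisons with knockdown are a description and support nothing. All 10 members had an adjusted p in each comparison.

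The libraries hold polyadenylated RNA of mouse 2-cell embryos of a hybrid cross (father DBA, mother an F1 of C57BL/6J × CBA/H), sequenced by Smart-seq2, a full-length protocol that keeps no strand. There were 16 libraries in 3 groups, all cultured in KSOM: 4 of non-injected embryos, 6 of the LacZ control and 6 of the knockdown. Zygotes of the LacZ control received double-stranded RNA whose target, LacZ, is bacterial and absent from the mouse, and those of the knockdown received double-stranded RNA that targets Suv39h2. Suv39h2 encodes a methyltransferase that puts 3 methyl groups on lysine 9 of histone H3. The design text speaks of pools of 5 embryos and the extraction protocol of a single embryo, and the labels do not say whether replicates came from separate litters, so p-values measure the spread between these samples only. A treatment label names Suv39h1 messenger RNA, which none of the groups received according to the other labels. Knockdown lowers a transcript without removing it: Suv39h2 stood at -1.95 ± 0.28 (standard error) on the log2 scale in knockdown against LacZ control in the authors' deposited table. The deposited values are means and fold changes over libraries, so the value in each library, its depth and the overlap of groups are not analysed here. In whole embryos, fewer cells with a transcript and less of it per cell cannot be told apart.

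The labelled stage was checked against its defining genes. All 15 genes of 2-cell embryo identity and all 14 of oocyte identity were present, with median mean counts of 640 and 620 in the authors' deposited table. Of 18 cumulus and granulosa cell genes 13 had a mean count below 10 in the authors' deposited table, and 2 of these, Lhcgr and Inhba, were at 0. Amhr2 was the highest of that list at 407. Tnfaip6, Cyp19a1 and Ptgs2 of the same list had mean counts of 36.5, 16.1 and 10.7. Of 12 sperm genes 10 were below 10, and the highest, Odf2, stood at 2138 in the authors' deposited table.

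Cells meet reactive aldehydes and peroxides as by-products of respiration and lipid oxidation. Glutathione, made by the glutamate-cysteine ligase of Gclc and Gclm, and thioredoxin, kept reduced by Txnrd1, donate the electrons that neutralise them. Many of these genes share a regulator, the transcription factor Nrf2 (gene Nfe2l2), which Keap1 marks for degradation through the Cul3 ubiquitin ligase and which binds antioxidant response elements together with small Maf proteins. The oocyte and early embryo are known for a large store of glutathione, laid down before fertilisation and used up during the first cleavages.

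The sequences before the start sites are shown for the members with a window that were called in knockdown over non-injected. Srxn1 is added because its window holds the related letters TGAGTCAGC. Windows of RefSeq on GRCm38.p6 reach from 250 bases before to 50 after a start site, and 7 of the 10 members had one. Akr1b3, Gclc and Hmox1 had none. Nqo1 and Txnrd1 are not shown, and the bases before their outermost start held no match to the motifs below. Each sequence below is read 5′ to 3′ on the gene's strand and stops before the first annotated transcribed base. Capitals mark matches on either strand to TGACNNNGC, the core of the antioxidant response element, to TGAGTCAGC, or to the AP-1 site TGANTCA, which can lie inside the longer forms. The windows are chr6:34353896-34354118 (plus strand) for Akr1b8, chr4:58987120-58987328 (minus strand) for Ptgr1, chr3:122245307-122245556 (plus strand) for Gclm, chr4:116685349-116685543 (plus strand) for Prdx1 and chr2:152105274-152105515 (plus strand) for Srxn1.
Akr1b8: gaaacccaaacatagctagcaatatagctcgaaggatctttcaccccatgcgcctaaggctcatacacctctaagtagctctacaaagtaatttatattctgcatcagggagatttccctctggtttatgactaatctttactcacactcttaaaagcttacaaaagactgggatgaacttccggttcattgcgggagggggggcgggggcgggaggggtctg
Ptgr1: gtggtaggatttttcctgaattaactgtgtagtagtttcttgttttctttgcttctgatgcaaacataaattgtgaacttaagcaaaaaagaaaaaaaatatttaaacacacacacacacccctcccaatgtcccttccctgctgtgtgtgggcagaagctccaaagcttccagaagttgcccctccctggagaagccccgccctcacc
Gclm: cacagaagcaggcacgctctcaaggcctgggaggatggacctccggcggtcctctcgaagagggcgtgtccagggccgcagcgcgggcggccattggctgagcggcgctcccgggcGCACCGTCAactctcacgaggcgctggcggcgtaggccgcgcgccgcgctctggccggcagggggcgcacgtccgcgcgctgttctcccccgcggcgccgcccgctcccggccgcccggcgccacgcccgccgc
Prdx1: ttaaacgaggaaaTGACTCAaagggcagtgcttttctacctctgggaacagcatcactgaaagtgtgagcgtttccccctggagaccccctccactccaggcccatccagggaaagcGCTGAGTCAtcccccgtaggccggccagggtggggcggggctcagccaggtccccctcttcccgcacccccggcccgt
Srxn1: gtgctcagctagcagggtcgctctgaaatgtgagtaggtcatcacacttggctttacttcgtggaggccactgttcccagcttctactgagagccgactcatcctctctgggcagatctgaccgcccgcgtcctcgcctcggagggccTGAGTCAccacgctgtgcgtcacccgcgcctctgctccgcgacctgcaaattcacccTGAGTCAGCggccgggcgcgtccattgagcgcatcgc

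No letters of the 3 motifs were found in the windows of Akr1b8 and Ptgr1. In the full windows the core TGACNNNGC matched in 4 of the 7 members, Gclm, Prdx1, Srxn1 and Txnrd1, against 14% of all 27025 genes with a window and 17.9% of 145 other genes of the redox lists. The 7 members had 9 windows. The match of Txnrd1 lies at an alternative start inside the gene (window chr10:82858956-82859255). The bases before its outermost start (chr10:82833701-82833950) held none. The match of Gclm lies at -134 to -126 from the RefSeq start and that of Prdx1 at -133 to -125, both on the minus strand. The Prdx1 match is also TGACTCAGC, a stricter form of the same length, found in 0.503% of genes. Srxn1 holds TGAGTCAGC at -45 to -37, a form found in 0.481% of genes, while its TGACNNNGC match lies after the start, at 28 to 36. A match is a description of letters, and the stricter forms matched fewer members, as given with the other settings.

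Levels differed widely between the members. Per kilobase of annotated exon, Prdx1, a peroxiredoxin that reduces hydrogen peroxide, had a mean normalized count of 957 and exceeded 98.1% of the 15538 genes ranked. Hmox1, the heme oxygenase, followed at 74.2 per kilobase and Nqo1, a quinone reductase, at 49.6. Akr1b3, Gclc, Gclm and Akr1b8 lay close together, at 36.6, 31.2, 30.8 and 28.5 per kilobase, near the median of 29.5 over the ranked genes. Txnrd1 stood at 19.6 per kilobase, and Ptgr1 and Srxn1 were the lowest, at 10.0462 and 9.99. The length decides the place of Akr1b3 and Txnrd1: per kilobase of the longest protein-coding transcript they stood at 221 and 38.3, and Akr1b3 was then second of the 10. The other 8 moved by less than 1.5 times. The libraries behind these means are all 16, so they do not describe a single group.

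**Figure D1:**
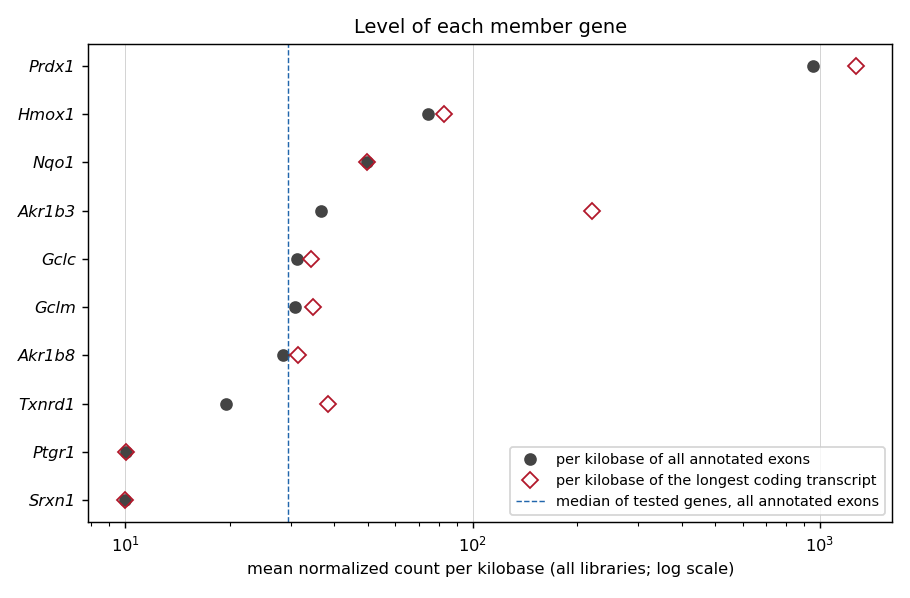
Mean normalized count per kilobase over all libraries for each member gene, on a log axis; filled circles divide by the length of all annotated exons merged, open diamonds by the longest protein-coding transcript, and the dashed line is the median of tested genes at 29.5. Prdx1 lies far to the right at 957, Ptgr1 and Srxn1 lie at the left, and Akr1b3 shifts from 36.6 to 221 with the length used.

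The aldehyde reductases come first, because they chose the set. Akr1b8 encodes an aldose reductase-like enzyme that reduces aliphatic aldehydes and retinal, and had a mean count of 42.7 in the authors' deposited table. With non-injected embryos set to 1, its relative level was 2.23 in LacZ control (1.71 to 2.89 within 1 standard error) and 4.61 in knockdown (3.56 to 5.96). On the log2 scale the authors' deposited table gives 1.15 ± 0.38 for LacZ control over non-injected and 1.05 ± 0.36 for knockdown over LacZ control. Its difference between knockdown and non-injected embryos was 2.20 ± 0.37 in the authors' deposited table, so the step at injection with LacZ and the further step with the Suv39h2 target were of similar size. Neither step passed the threshold on its own: DESeq2's adjusted p in the authors' deposited table was 0.0743 for LacZ control over non-injected and 0.117 for knockdown over LacZ control. Akr1b8 was therefore called only in knockdown against non-injected embryos, a contrast in which injection, double-stranded RNA and the target cannot be told apart.

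Ptgr1 encodes prostaglandin reductase, which also reduces the double bond of toxic alkenals, and was weakly expressed, with a mean count of 23.1 in the authors' deposited table. Its relative level was 1.13 in LacZ control (0.867 to 1.48 within 1 standard error) and 3.23 in knockdown (2.49 to 4.19), with non-injected embryos at 1. In the authors' deposited table its log2 differences were 0.18 ± 0.38 for LacZ control over non-injected, 1.51 ± 0.37 for knockdown over LacZ control and 1.69 ± 0.37 for knockdown over non-injected. LacZ control and non-injected embryos thus did not differ beyond the standard error, and nearly all of the difference lay between the injected groups. Whether the pattern of Ptgr1 differs from that of Akr1b8 was not tested.

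Akr1b3, aldose reductase itself, reduces glucose to sorbitol and detoxifies aldehydes. Its relative level was 1.69 in LacZ control and 2.29 in knockdown, with non-injected embryos at 1. It rose by 1.19 ± 0.24 in knockdown over non-injected in the authors' deposited table (DESeq2, adjusted p = 0.000156). The difference was 0.76 ± 0.25 for LacZ control over non-injected and 0.43 ± 0.23 for knockdown over LacZ control in the authors' deposited table (DESeq2, adjusted p = 0.144 and 0.383). The order of the groups was the same as for Akr1b8, but only its ends differed by the test. Copies of its sequence limit this gene: 7 other annotated genes, mostly processed pseudogenes, match its transcript over at least 200 bases at 90% identity or more, with a summed mean count of 16.8 against 307 for Akr1b3.

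Akr1b3 and Akr1b8 lie beside each other on chromosome 6 of GRCm38. Akr1b3 spans 34302434 to 34317478 on the minus strand and Akr1b8 spans 34354119 to 34368463 on the plus strand, 36.6 kb further on. Akr1b10 and Akr1b7, the next genes of the cluster, had mean counts of 3.50 and 11.3 in the authors' deposited table. Their log2 differences between knockdown and non-injected embryos were 0.31 and 0.02 in the authors' deposited table. Both transcripts are 86.9% to 87.0% identical to that of Akr1b8 over 909 and 905 bases, so reads that fall in matching stretches are uncertain.

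**Figure D2:**
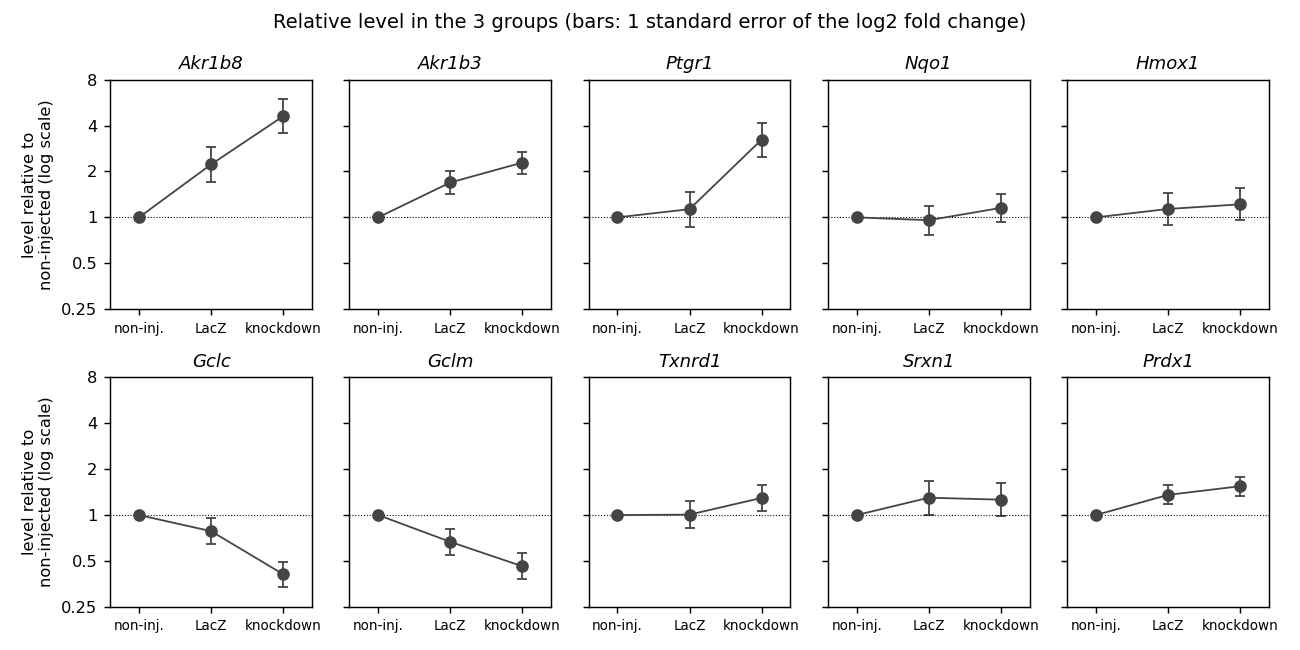
Level of each member relative to non-injected embryos (set to 1, log axis), computed as 2 to the power of the authors' shrunken log2 fold change; bars span 1 standard error, and the lines join the 3 groups only to guide the eye. Akr1b8 climbs to 2.23 and 4.61, Ptgr1 stays at 1.13 and then reaches 3.23, while Gclc and Gclm descend to 0.409 and 0.461.

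The glutamate-cysteine ligase, the first step of glutathione synthesis, went the other way. Gclc, its catalytic subunit, had a mean count of 118 in the authors' deposited table. Its level relative to non-injected embryos was 0.784 in LacZ control (0.647 to 0.950 within 1 standard error) and 0.409 in knockdown (0.339 to 0.495). It fell by 1.29 ± 0.27 on the log2 scale in knockdown against non-injected embryos in the authors' deposited table (DESeq2, adjusted p = 0.000447). Against LacZ control the difference was -0.94 ± 0.26 in the authors' deposited table, just outside the threshold (DESeq2, adjusted p = 0.0520). The side of the threshold depended on the genes adjusted over: Benjamini-Hochberg adjustment gave 0.0495 over genes with a mean count of at least 10, 0.0399 over those of at least 100 and 0.0877 over every gene with a p-value. LacZ control over non-injected stood at -0.35 ± 0.28 in the authors' deposited table (DESeq2, adjusted p = 0.977).

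Gclm, the modifier subunit that raises the activity of Gclc, moved in the same direction. Its relative level was 0.667 in LacZ control (0.545 to 0.816 within 1 standard error) and 0.461 in knockdown (0.378 to 0.562). It fell by 1.12 ± 0.29 in knockdown against non-injected embryos in the authors' deposited table (DESeq2, adjusted p = 0.00342). The differences were -0.53 ± 0.27 for knockdown over LacZ control and -0.58 ± 0.29 for LacZ control over non-injected in the authors' deposited table, neither of them called (DESeq2, adjusted p = 0.359 and 0.640). In Gclm the 2 steps were thus of like size, as in Akr1b8, with the sign reversed. The exons of Gclm share 296 bases with Gm17494 on the opposite strand and 244 bases with Gm6061 on its own strand. Reads of the stretch shared with Gm17494 cannot be assigned without strand, and strand would not settle those shared with Gm6061. Gclc lies on chromosome 9 (77754535 to 77794485) and Gclm on chromosome 3 (122245557 to 122270732) of GRCm38.

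Of the peroxide and thioredoxin genes, Prdx1 was called. It is abundant, with a mean count of 2911, and rose by 0.63 ± 0.20 in knockdown over non-injected in the authors' deposited table (DESeq2, adjusted p = 0.0215). Its relative level was 1.36 in LacZ control and 1.55 in knockdown, with non-injected embryos at 1. The authors' deposited table gives 0.44 ± 0.21 for LacZ control over non-injected and 0.19 ± 0.19 for knockdown over LacZ control (DESeq2, adjusted p = 0.578 and 0.700). Txnrd1, the cytosolic thioredoxin reductase, stood at 0.37 ± 0.28 in knockdown over non-injected in the authors' deposited table, and Srxn1, the sulfiredoxin that repairs overoxidised peroxiredoxins, at 0.34 ± 0.36 (DESeq2, adjusted p = 0.423 and 0.539). Against LacZ control these were 0.36 ± 0.27 and -0.04 ± 0.35 in the authors' deposited table.

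Nqo1 and Hmox1, much-used reporters of Nrf2 activity, were not called in any of the 3 comparisons. Nqo1 stood at 0.21 ± 0.31 in knockdown over non-injected, 0.27 ± 0.30 in knockdown over LacZ control and -0.06 ± 0.32 in LacZ control over non-injected in the authors' deposited table. The lowest of its adjusted p-values was 0.677. Hmox1, which breaks down heme, stood at 0.28 ± 0.35, 0.10 ± 0.34 and 0.18 ± 0.36 in the same order in the authors' deposited table. All 3 values of Nqo1 and all 3 of Hmox1 lay within 1 standard error of 0. Nqo1 lies on chromosome 8 (107388225 to 107403206) and Hmox1 on the same chromosome (75093621 to 75100589) of GRCm38.

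**Figure D3:**
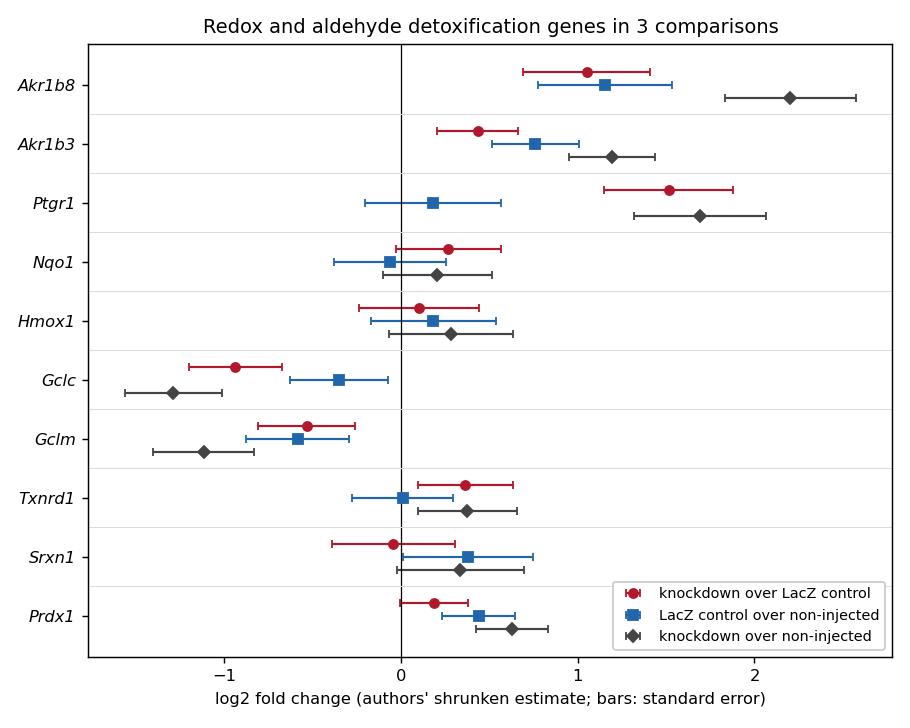
Log2 fold change of each member gene in the 3 comparisons, as the authors' shrunken estimate with its standard error as the bar; circles are knockdown over LacZ control, squares LacZ control over non-injected and diamonds knockdown over non-injected. Akr1b8, Akr1b3 and Ptgr1 lie to the right of 0 and Gclc and Gclm to the left. Their diamonds stand at 2.20, 1.19, 1.69, -1.29 and -1.12. The bars of Nqo1 and Hmox1 cross 0 in all 3 comparisons.

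Counted over the comparisons, the calls among the members fell mainly in knockdown against non-injected embryos. There 6 of 10 were called by DESeq2 in the authors' deposited table, 4 higher and 2 lower, where 15.2% of the 14948 genes tested were called, 7.41% higher and 7.76% lower. At an unadjusted p under 0.05 the share there was 29% of all genes tested and 29.2% of those with a mean count of at least 10. Leaving out Akr1b8 and Ptgr1, 4 of 8 were called, 2 higher (Akr1b3, Prdx1) and 2 lower (Gclc, Gclm). The set was chosen on values in knockdown, so the counts describe the members and nothing is read from them. Between knockdown and LacZ control 1 of 10 was called by DESeq2 in the authors' deposited table, Ptgr1, where 0.899% of 15572 genes were, 0.366% higher and 0.533% lower. Of the other 8 members, 0 were called there by DESeq2 and 1 (Gclc) had an unadjusted p under 0.05, where 14.7% of all genes tested and 15.1% of those with a mean count of at least 10 did. Between LacZ control and non-injected embryos DESeq2 called 0 of 10 members in the authors' deposited table, where 0.792% of 29288 genes were called, 0.529% higher and 0.263% lower. At an unadjusted p under 0.05 there were 4 members, Akr1b8, Akr1b3 and Prdx1 higher and Gclm lower, where 7.39% of all genes tested and 11.9% of those with a mean count of at least 10 were below it. The comparisons share groups, and knockdown over non-injected is the sum of the other 2 on the log2 scale.

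The members' medians were 0.35 in knockdown over non-injected, 0.23 in knockdown over LacZ control and 0.18 in LacZ control over non-injected in the authors' deposited table. Without Akr1b8 and Ptgr1, which chose the set, the medians of the other 8 were 0.31, 0.14 and 0.10 in the authors' deposited table. Over all genes tested they were 0.05, 0.02 and 0.003. Oocyte transcripts moved in the comparison that held most calls. Of 14 oocyte identity genes 6 were called higher by DESeq2 and 0 lower in knockdown over non-injected, against 7.41% and 7.76% of all genes tested. The median of the oocyte genes there was 0.63 in the authors' deposited table. In LacZ control over non-injected their median was 0.35 with 0 called by DESeq2 and 5 at an unadjusted p under 0.05. In knockdown over LacZ control it was 0.17 with 0 called and 2 at an unadjusted p under 0.05. Of genes with a mean count of at least 10, 11.9% and 15.1% were below that p in these 2 comparisons. The part of oocyte transcripts in the members' differences was not tested. Of the 6 cumulus and granulosa genes tested in each comparison with knockdown, 0 were called by DESeq2, and at an unadjusted p under 0.05 there were 3 in knockdown against non-injected embryos and 0 against LacZ control. Over all genes tested 29% and 14.7% were below it.

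The other enzymes of glutathione were examined as a list of 22 genes, 19 of which were tested in knockdown over non-injected. DESeq2 called 2 lower and 2 higher in the authors' deposited table, where 7.76% and 7.41% of all genes tested were. The median of the list was 0.23. Of the lower ones, Gss, glutathione synthetase, fell by 0.87 ± 0.32 and Gsr, glutathione reductase, fell by 0.97 ± 0.26 in the authors' deposited table (DESeq2, adjusted p = 0.0429 and 0.00384). The call of Gss ended when p was adjusted over every gene with a p-value (adjusted p = 0.0866, Benjamini-Hochberg on the DESeq2 p-values), while those of Gsr, Gclc and Gclm did not. Slc7a11, which imports cystine for the pathway, stood at 0.32 ± 0.26 in the authors' deposited table and was not called (DESeq2, adjusted p = 0.444). The higher ones were Glrx, a glutaredoxin (0.93 ± 0.28), and Gpx6, a glutathione peroxidase (1.25 ± 0.33), in the authors' deposited table (DESeq2, adjusted p = 0.00994 and 0.00539). Gpx1 had the highest mean count of the list, 1404, and stood at 0.48 ± 0.21 in the authors' deposited table (DESeq2, adjusted p = 0.111).

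Against LacZ control 0 of the 19 genes were called by DESeq2, and 3 had an unadjusted p under 0.05, where 15.1% of genes with a mean count of at least 10 did. Gss stood at -0.05 ± 0.31 and Gsr at -0.42 ± 0.25 in the authors' deposited table for that comparison. Glrx stood at -0.07 ± 0.26 and Gpx6 at 0.72 ± 0.32 there in the authors' deposited table. For LacZ control over non-injected Gss stood at -0.82 ± 0.32 in the authors' deposited table and was not called (DESeq2, adjusted p = 0.374). Glrx rose by 1.01 ± 0.28 in LacZ control over non-injected in the authors' deposited table (DESeq2, adjusted p = 0.0446), the one call of all 10 redox lists in that comparison, which ended when p was adjusted over every gene with a p-value.

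Glutathione S-transferases, which attach glutathione to electrophiles, had the highest median of the 10 lists in knockdown over non-injected, 0.63 in the authors' deposited table. Of 27 genes 15 were tested and 3 were called higher and 0 lower by DESeq2, where 7.41% and 7.76% of all genes tested were. The called genes were Gstm5 (1.11 ± 0.27), Gstm4 (1.43 ± 0.39) and the microsomal enzyme Mgst3 (0.89 ± 0.26) in the authors' deposited table (DESeq2, adjusted p = 0.00162, 0.00908 and 0.00911). Gstm5 is abundant, with a mean count of 1130, and Gstm4 is rare, with 10.7. The authors' deposited table gives Gstm5 and Mgst3 as 0.88 ± 0.27 and 0.81 ± 0.27 in LacZ control over non-injected, neither called by DESeq2. Gstm4 stood at 1.45 ± 0.40 in knockdown over LacZ control in the authors' deposited table (DESeq2, adjusted p = 0.0519). The Gstm genes are close copies of each other, so reads of shared stretches are uncertain.

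Among 22 thioredoxin, peroxiredoxin, superoxide dismutase and catalase genes, 19 were tested, and DESeq2 called 3 higher and 1 lower in knockdown over non-injected in the authors' deposited table. Over all genes tested 7.41% were called higher and 7.76% lower. Prdx2, the most abundant at a mean count of 7670, rose by 0.71 ± 0.23, and the mitochondrial thioredoxin Txn2 rose by 0.86 ± 0.27 in the authors' deposited table (DESeq2, adjusted p = 0.0191 and 0.0148). Msrb3, which reduces oxidised methionine, rose by 0.85 ± 0.27 and the mitochondrial peroxiredoxin Prdx3 fell by 0.97 ± 0.31 in the authors' deposited table (DESeq2, adjusted p = 0.0164 and 0.0229). In the authors' deposited table the cytosolic and mitochondrial superoxide dismutases Sod1 and Sod2 were at 0.41 ± 0.21 and -0.19 ± 0.21, neither of them called. Against LacZ control Prdx2, Txn2, Msrb3 and Prdx3 stood at 0.06 ± 0.22, 0.32 ± 0.25, 0.30 ± 0.26 and -0.52 ± 0.30. For LacZ control over non-injected they stood at 0.65 ± 0.23, 0.54 ± 0.27, 0.55 ± 0.27 and -0.45 ± 0.32. DESeq2 called 0 of 19 and 0 of 21 list genes in these comparisons, where 0.899% and 0.792% of all genes tested were.

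NADPH supplies the electrons for both glutathione and thioredoxin. Of 15 genes for its supply, all tested, 4 were called higher and 0 lower by DESeq2 in knockdown over non-injected, with a median of 0.06 in the authors' deposited table. Over all genes tested 7.41% were called higher and 7.76% lower. G6pdx, which feeds the pentose phosphate pathway, rose by 1.26 ± 0.23 and the cytosolic malic enzyme Me1 by 0.79 ± 0.20 in the authors' deposited table (DESeq2, adjusted p = 1.68e-05 and 0.00259). The mitochondrial malic enzyme Me2 rose by 0.81 ± 0.22 and the isocitrate dehydrogenase Idh1 by 1.12 ± 0.36 in the authors' deposited table (DESeq2, adjusted p = 0.00491 and 0.0304), and the call of Idh1 ended with adjustment over every gene with a p-value (0.0616). The next enzyme of the pentose pathway, Pgd, stood at -0.59 ± 0.24 in the authors' deposited table (DESeq2, adjusted p = 0.0782). Me1 had the highest mean count of this list, 2515.

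The other aldehyde enzymes were few and mostly weak. Of 15 further aldo-keto reductases only 4 were tested in knockdown over non-injected, and DESeq2 called 0 of them, with 0 at an unadjusted p under 0.05; Akr1a1, the highest at a mean count of 645, stood at 0.40 ± 0.24 in the authors' deposited table. Among 27 aldehyde and alcohol dehydrogenases 13 were tested, 3 were called higher and 0 lower, with a median of 0.43. Over all genes tested 7.41% were called higher and 7.76% lower. Aldh1a2, which makes retinoic acid from retinal, rose by 1.31 ± 0.31 in the authors' deposited table (DESeq2, adjusted p = 0.00152). The fatty aldehyde dehydrogenase Aldh3a2 rose by 1.07 ± 0.39 and Aldh7a1 by 0.84 ± 0.28 in the authors' deposited table (DESeq2, adjusted p = 0.0263 and 0.0301), calls that ended with adjustment over every gene with a p-value (0.0533 and 0.0608). Aldh9a1, the most abundant at a mean count of 1471, stood at 0.43 ± 0.20 in the authors' deposited table and was not called. Aldh3a2 stood at -0.02 ± 0.38 in knockdown over LacZ control and at 1.10 ± 0.39 in LacZ control over non-injected. In the same order Aldh7a1 stood at 0.43 ± 0.27 and 0.41 ± 0.29, and Aldh1a2 at 0.84 ± 0.29 and 0.46 ± 0.31. DESeq2 called 0 of 14 and 0 of 26 dehydrogenases in these comparisons, where 0.899% and 0.792% of all genes tested were. Of 13 prostaglandin, quinone and carbonyl reductases 8 were tested and 0 called by DESeq2 in knockdown over non-injected. There 1 had an unadjusted p under 0.05, where 29% of all genes tested did. Cyb5r3 had the highest mean count, 325, and Ptgr2, the paralog of Ptgr1 in function, stood at -0.07 ± 0.38 in the authors' deposited table.

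Iron genes are part of the picture because free iron turns hydrogen peroxide into radicals. Of 9 tested genes for heme, biliverdin and iron, DESeq2 called 1 higher and 1 lower in knockdown over non-injected. Over all genes tested 7.41% were called higher and 7.76% lower. Slc40a1, ferroportin, the exporter of iron, rose by 1.43 ± 0.36 and Tfrc, the transferrin receptor that brings iron in, fell by 0.59 ± 0.18 in the authors' deposited table (DESeq2, adjusted p = 0.00594 and 0.0133). The ferritin subunits Ftl1 and Fth1 had values of 0.15 ± 0.16 and 0.40 ± 0.21 in the authors' deposited table. Ftl1 had the highest mean count of the list, 3359. Ferritin genes have many pseudogenes, which makes their counts uncertain.

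**Figure D4:**
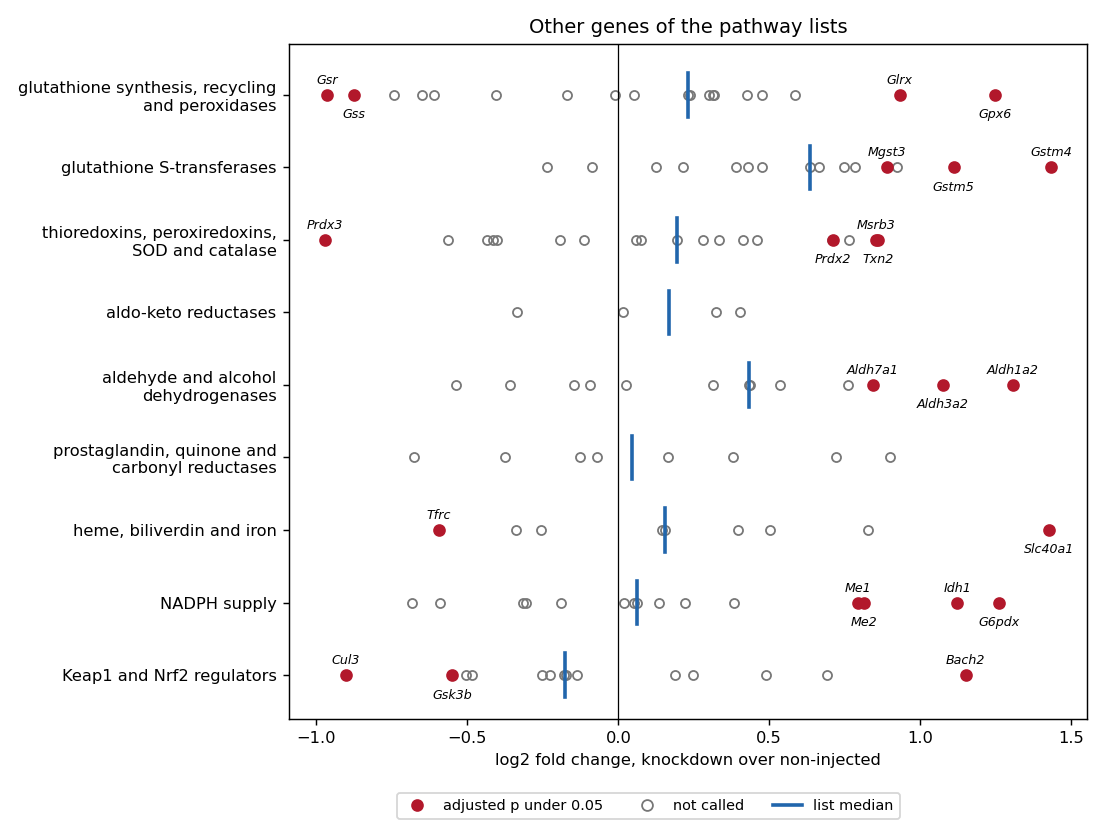
Log2 fold change of knockdown over non-injected embryos for the tested genes of 9 redox lists, the members left out; red points passed an adjusted p under 0.05, open points did not, and the blue line is the list's median. Gsr and Gss lie to the left at -0.97 and -0.87, the called NADPH genes all lie to the right, and the glutathione S-transferases have the median furthest to the right, 0.63.

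The regulators of the antioxidant response included the one redox gene outside the members that was called between the injected groups. Cul3, the scaffold of the ubiquitin ligase that Keap1 uses against Nrf2 and that serves many other adaptors, fell by 1.07 ± 0.23 in knockdown against LacZ control in the authors' deposited table (DESeq2, adjusted p = 0.00511). It fell by 0.90 ± 0.24 against non-injected embryos in the authors' deposited table (DESeq2, adjusted p = 0.00458), and had the highest mean count of the 14 regulators, 1687. Nfe2l2 itself stood at -0.19 ± 0.21 and Keap1 at 0.07 ± 0.29 in knockdown over LacZ control in the authors' deposited table, neither of them called (DESeq2, adjusted p = 0.705 and 0.950). Transcript levels do not measure the amount or activity of the Nrf2 protein. In knockdown over non-injected, Bach2, a repressor that pairs with small Maf proteins, rose by 1.15 ± 0.29 and Gsk3b, a kinase that marks Nrf2, fell by 0.55 ± 0.20 in the authors' deposited table (DESeq2, adjusted p = 0.00293 and 0.0385). The call of Gsk3b ended with adjustment over every gene with a p-value (0.0778).

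Textbook Nrf2 targets outside the members form a list of 22 that overlaps the others. In knockdown over non-injected 17 were tested, 2 were called higher (G6pdx, Me1) and 1 lower (Gsr) by DESeq2, with a median of 0.40 in the authors' deposited table. At an unadjusted p under 0.05 there were 8 higher and 2 lower, where 29.2% of genes with a mean count of at least 10 were below it. Of the 17 values 12 were above 0, where the median over all genes tested was 0.05. In knockdown over LacZ control the median was also 0.40, and 0 were called by DESeq2, with 4 higher and 1 lower at an unadjusted p under 0.05. There 15.1% of genes with a mean count of at least 10 were below it. Taking each gene of the 10 lists once, 23 of 120 tested were called in knockdown over non-injected, 17 higher and 6 lower, where 15.2% of all genes were. Between knockdown and LacZ control 1 of 123 was called, where 0.899% of all genes were. For LacZ control over non-injected it was 1 of 163, where 0.792% of all genes were.

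The genes most like Akr1b8 and Ptgr1 were found from 12448 other protein-coding genes with a mean count of at least 10, by the distance between their pairs of log2 fold changes over the 3 groups. Nearest to Akr1b8 were Krt18, Cirbp, Tagln2, Ahnak and Krt8, at distances of 0.21, 0.25, 0.28, 0.34 and 0.37. Krt18 and Krt8 form the simple epithelial keratin filament, and Cirbp is a cold-inducible RNA-binding protein. Krt18 stood at 0.96 for LacZ control over non-injected and 0.99 for knockdown over LacZ control in the authors' deposited table, against 1.15 and 1.05 for Akr1b8. Nearest to Ptgr1 were Scin, Slc25a1, Kremen2, Lipa and Tdgf1, at distances of 0.06, 0.14, 0.14, 0.15 and 0.16. Scin, an actin-severing protein, stood at 0.13 and 1.47 in the same comparisons in the authors' deposited table, against 0.18 and 1.51 for Ptgr1. Neither group of neighbours holds another member or a gene of the redox lists. A likeness over 3 groups is a description and rests on few points.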

How the data were processed

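The deposited tables are the authors' own comparisons of genes, 1 for each pair of groups; 3 tables of repeat elements were not used. Per the submitters' processing notes, the tools were STAR 2.5.2b, SAMtools, HTSeq 0.9.1 and DESeq2 1.18.1, and the build was GRCm38.p5. RUVSeq factors and shrinkage of fold changes are known from the names of the deposited tables. Per the file headers, the deposited tables give a mean normalized count (a signal, counts over size factors), log2 fold changes with standard errors, the Wald score, p-values and adjusted p-values. Not given in the sources used here were the number of factors, the annotation release and the strand setting. Shrinkage pulls fold changes of rare transcripts towards 0.

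From these, counts of calls at an adjusted p under 0.05, list medians, relative levels (2 to the power of the log2 fold change) and levels per kilobase were computed with Python 3.11.15 and pandas 2.3.3. Symbols and positions came from GENCODE vM21 on GRCm38 by Ensembl identifier, version dropped, for 49326 of 49585 identifiers. Similar transcripts were searched with BLAST 2.17.0. The adjustment was tested on simulated data. Tables with values per library are not used here (0 such columns), so depth is unknown and no library was left out.

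The members, the gene lists and the rules were chosen with earlier results of these data known. Named were all members, the genes called in each list (at most 4 per list and comparison by adjusted p), the gene of each list with the highest mean count, and the 5 nearest genes to Akr1b8 and Ptgr1; Slc7a11, Pgd, Sod1, Sod2, Ptgr2, Fth1, Nfe2l2 and Keap1 were named for their role, and Aldh1b1 for its call under another adjustment, after their values had been seen.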

Additional observations from a re-analysis of the deposited data

How the results depend on the processing

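Another adjustment of p left 76 of 78 member values on their side of 0.05, the exceptions being Gclc in knockdown over LacZ control with a minimum mean count of 10 or 100. Members called in that comparison numbered 1, and 2 with a minimum mean count of 10 (Ptgr1 higher, Gclc lower), 0 at an adjusted p under 0.01 and 2 at an adjusted p under 0.10. In LacZ control over non-injected 0 members were called, and 1 at an adjusted p under 0.10. The 1 call of the redox lists there (Glrx) became 0 with adjustment over every gene. In knockdown over non-injected the 23 calls of the lists (17 higher, 6 lower) became 19 (15 higher, 4 lower): Gss, Gsk3b, Idh1, Aldh3a2 and Aldh7a1 were lost and Aldh1b1, which has no adjusted p in the deposited table, was gained. Taking the median of genes of like mean count from each member's fold change left 29 of 30 signs, the exception being Txnrd1 in LacZ control over non-injected (0.01 to -0.01), and moved 30 of 30 by less than their standard error. A minimum mean count of 10 moved 26 of 30 list medians by less than 0.1. The others were the aldo-keto reductases in knockdown over LacZ control, whose median changed sign (0.09 to -0.09), and in LacZ control over non-injected the glutathione S-transferases (0.15 to 0.47), the aldo-keto reductases (0.04 to 0.20) and the aldehyde and alcohol dehydrogenases (0.09 to 0.21). Member windows with the motif numbered 4 with TGACNNNGC, 1 with TGACTCAGC and 2 with A or G before the core; with TGAGTCAGC and TGANTCA, chosen after the data had been seen, 1 and 2. The length of the longest transcript was also chosen after the data had been seen. No paired analysis was possible because the tables hold no values per library; for the same reason leaving out single replicates was not run. Unknown depth limits what the uncalled members can show. Srxn1 had the lowest mean count of them, 28.2, and Nqo1 stood at 77.1.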

Other observations

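Genes that mark the 2-cell stage were listed for the check of the tissue, and their differences are given here as a description. Of 15, all tested, DESeq2 called 6 higher and 1 lower in knockdown over non-injected in the authors' deposited table, with a median of 0.38. Over all genes tested 7.41% were called higher and 7.76% lower. Tdpoz3 stood at 1.17 ± 0.27, Tdpoz4 at 1.02 ± 0.24, Tcstv1 at 1.03 ± 0.26 and Zscan4f at 1.21 ± 0.30 in the authors' deposited table, all of them called, and Dppa2 at -0.85 ± 0.23 was the call that was lower. In LacZ control over non-injected 2 were called higher, Tcstv1 and Tcstv3, at 1.05 ± 0.26 and 0.89 ± 0.25 in the authors' deposited table. Over all genes tested there 0.529% were called higher. The median of the 15 in that comparison was 0.45, with 7 higher and 0 lower at an unadjusted p under 0.05. Of genes with a mean count of at least 10, 11.9% were below that p. Between knockdown and LacZ control DESeq2 called 0 of the 15, with 1 higher and 2 lower at an unadjusted p under 0.05. There 15.1% of genes with a mean count of at least 10 were below it. Tdpoz and Zscan4 genes are families of close copies, so their counts are uncertain.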
